A study of Mus musculus with 12 samples.

Results

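Forkhead (Fox) genes encode transcription factors that bind DNA through a shared winged-helix domain, and their names give the subfamily as a letter and the member as a number. The genes described here were those whose mouse symbol is Fox, 1 letter from a to s and a number with nothing after it, apart from a pair of forkhead genes not analysed here. They were 42 of the 39017 genes in the table of counts. Symbols were assigned from Ensembl identifiers, and 1 member, Foxf1, stood there under its older symbol Foxf1a. By subfamily, 22 members were taken as developmental (subfamilies A to I, L, Q and S), 14 as broadly expressed (J, K, M, O and P) and 6 as neither (N and R).

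Developmental forkhead factors are known for patterning single tissues of the embryo, such as FOXA in endoderm, FOXC and FOXF in mesoderm and FOXH1 as the DNA-binding partner of SMADs downstream of Nodal. The broad subfamilies act in most cells: FOXO factors respond to insulin and PI3K-AKT signaling, FOXK factors act on metabolism and autophagy, FOXM1 drives genes of late cell cycle, and FOXP factors are mostly repressors. Among these subfamilies, Foxj1 (motile cilia) and Foxp3 (regulatory T cells) are themselves tissue-restricted genes.

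Poly(A) RNA was sequenced from mouse embryonic stem cells (mESCs) in 12 libraries, 3 biological replicates in each of 4 groups. J1 is a wild-type mESC line. The line 3B3-3l, named 3B3L by the study, was built from a mESC line that lacks both endogenous Dnmt3a and Dnmt3b (Dnmt3a-/-, Dnmt3b-/-) and carries transgenes for Dnmt3b and for the cofactor Dnmt3l, both under the constitutive CAG promoter. It was made to hold DNA methylation high in 2i and is a single line. All cells received LIF, and the media were either serum or 2i, a defined medium with 1 µM of the MEK inhibitor PD0325901 and 3 µM of the Gsk3 inhibitor CHIR99021. In serum, J1 cells were kept on inactivated feeder cells, which were depleted by plating before use, and 3B3-3l cells on gelatin, so line and surface cannot be told apart there. The study names feeders for J1 in serum culture only and depletes them for the change to 2i. In J1, medium and feeder culture thus cannot be told apart either.

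Libraries held 37050652 to 44515395 estimated reads. As a check of the labels, Dnmt3b stood at 41.0 to 47.2 CPM (read counts scaled to a common library size) in J1 2i and 914 to 936 CPM in 3B3-3l 2i, and Dnmt3l at 47.9 to 55.5 and 285 to 294 CPM. Dnmt3a stood at 166 to 167 CPM in J1 serum and 29.4 to 34.3 CPM in 3B3-3l serum, where reads of a disrupted allele can still be counted. The 10 markers of pluripotent mESCs summed to 5706 to 5765 CPM in J1 serum, 6628 to 7292 in J1 2i, 4919 to 5451 in 3B3-3l serum and 7624 to 7856 in 3B3-3l 2i.

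The broad members were abundant in these cells and the developmental ones, with few exceptions, were near the detection limit. A mean of at least 1 CPM in some group was reached by 3 of 22 developmental members (Foxa3, Foxh1 and Foxi3), by 12 of 14 broad members and by 5 of 6 in neither class. A mean of at least 10 CPM was reached by 2, 10 and 3 members. Counts were high enough to test 27 members, of which 9 were developmental, 13 broad and 5 neither, so a count of members tested leaves out most of the developmental class.

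Divided by effective transcript length, the most abundant member averaged over the 4 groups was Foxh1, with 34.99 ± 1.27 CPM per kb in J1 serum and 46.3 ± 3.96 in J1 2i (SD, n = 3). Foxm1 lay next to it, with 33.4 ± 0.917 in J1 serum and 49.5 ± 1.84 in J1 2i, and the pair overlapped within their SDs in both J1 groups. Foxp4 and Foxk2 came next in the order. Foxp4 was the highest of all members in 3B3-3l 2i, at 52.3 ± 1.51 CPM per kb, above Foxh1 at 45.6 ± 0.780 and Foxm1 at 39.8 ± 0.573. Foxj3, Foxn2 and Foxo3 lay between 8.40 and 14.1 CPM per kb in every group, and their order was not the same in every group. Among members at 1 CPM or more, Foxi3 moved most in the order, from place 7 of 42 in 3B3-3l serum to place 18 in 3B3-3l 2i. Foxp1 moved from place 6 in J1 serum to place 16 in J1 2i, with the reservation that its length rests on part of its transcripts.

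**Figure D1:**
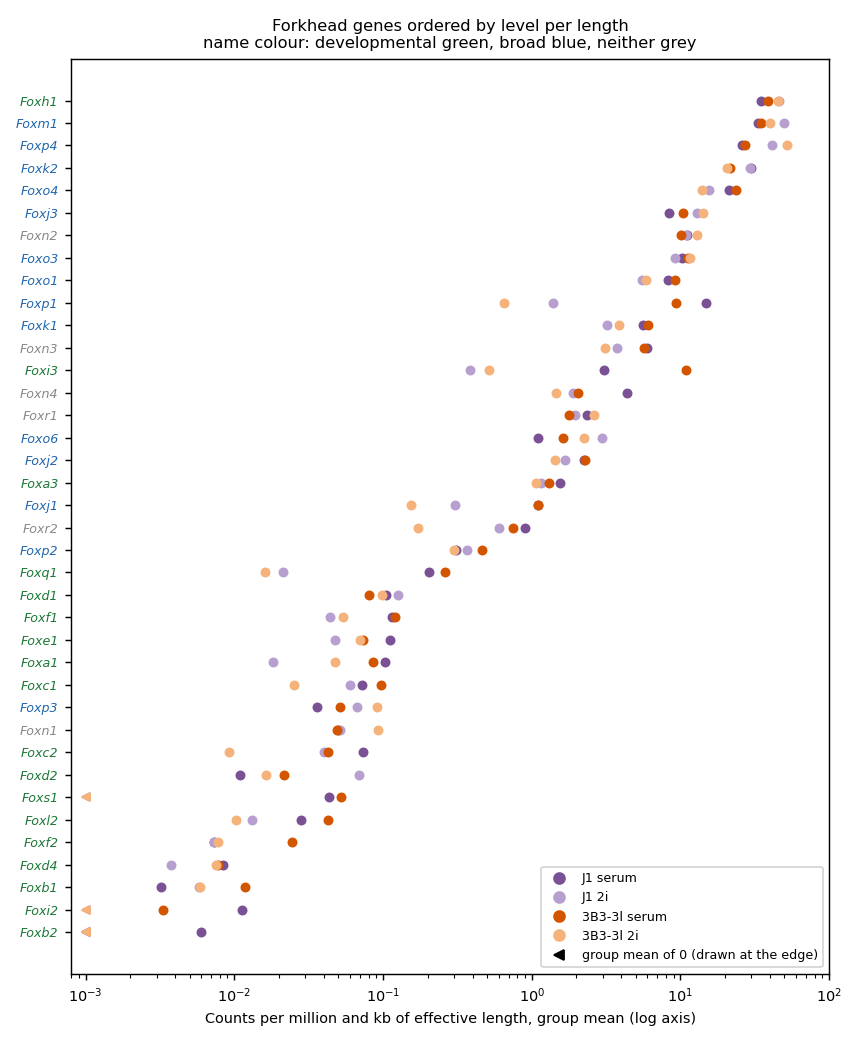
Group means of 38 forkhead genes in CPM per kb of effective length, on a log axis, ordered by the mean over the 4 groups (colours of the points). Most broad members lie above 1 CPM per kb and most developmental ones below 0.3. Among members at 1 CPM or more in a group, Foxp1, Foxi3 and Foxj1 show the widest gap between serum and 2i. Foxq1, at a lower level, also shows a wide gap, and Foxs1 has 2i means of 0.

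Summed over the class, the members hid their own changes. The 14 broad members together held 632 ± 17.3 CPM in J1 serum, 627 ± 7.03 in J1 2i, 623 ± 10.8 in 3B3-3l serum and 612 ± 12.6 in 3B3-3l 2i (SD, n = 3). The 22 developmental members held 48.6 ± 1.73, 56.4 ± 5.17, 60.8 ± 4.81 and 55.8 ± 1.46 CPM in the same order of groups. Of these sums, Foxh1 made up 39.8, 52.4, 44.0 and 52.1 CPM, and Foxi3 made up 3.31, 0.412, 11.6 and 0.556 CPM. The 6 remaining members held 80.9 ± 0.122 CPM in J1 serum and 68.6 ± 2.03 to 70.9 ± 3.46 in the other groups.

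The first question was how the family differed between the media in each line. In both lines the main changes were losses in 2i: Foxp1, a repressor, Foxi3, a factor of ectodermal appendages, Foxj1, the regulator of motile cilia, and the weakly expressed Foxq1 were among those that fell most, and Foxp4, Foxo6 and Foxm1 rose. Calls are at a p below 0.05 from edgeR, adjusted by Benjamini-Hochberg across the 17885 genes that were tested. In J1, 20 of 27 tested members were called, 5 higher and 15 lower in 2i, beside 66.1% of all genes called, 33.2% higher and 32.9% lower. In 3B3-3l, 22 of 27 were called, 7 higher and 15 lower, beside 65.4% of all genes, 32.7% in each direction. The overall share of members called, 74.1% and 81.5%, was thus near the background. The median log2 fold change of the tested members was -0.43 in J1 and -0.63 in 3B3-3l, beside 0.01 for all genes in each line. A member that passed the filter on low counts only through serum had to differ, so these counts and medians describe the tested members and not the family.

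By class, 6 of 9 tested developmental members were called in J1 (1 higher, 5 lower) and 5 of 9 in 3B3-3l (1 higher, 4 lower). Of 13 tested broad members, 11 were called in J1 (4 higher, 7 lower) and 12 in 3B3-3l (4 higher, 8 lower). Of the other 5, 3 were called in J1, all lower, and 5 in 3B3-3l, 2 higher and 3 lower. At a change of at least 2-fold, 8 members were called in J1 and 9 in 3B3-3l, beside 23.2% and 23.4% of all genes. Called in both lines were 16 members, 5 higher and 11 lower, with no member called in opposite directions. Foxr1 came close to that, as it was called higher in 3B3-3l and missed the threshold for a fall in J1 (adjusted p = 0.0513). Under 6 alternatives that fall was called. The share of all genes called in both lines was not computed, so the agreement is not read as a trait of the family. Only Foxd1 was called in neither.

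**Figure D2:**
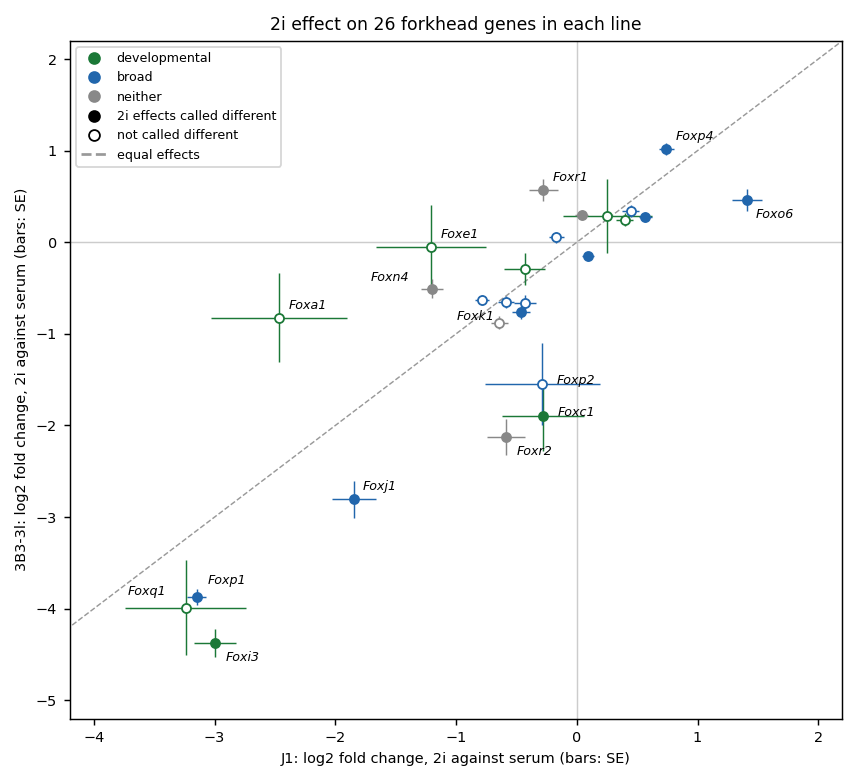
The log2 fold change of 2i against serum in J1 (horizontal) and 3B3-3l (vertical) for 26 of the 27 tested forkhead genes, with standard errors, and the line of equal effects. Foxp1, Foxq1, Foxi3 and Foxj1 lie at the lower left, with values of -1.85 or less in both lines, and filled points mark members whose 2i effects were called different between the lines.

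Sequence around the start site is shown for the members above 1 CPM that changed at least 2-fold with the medium in a line, because the lines differ in DNA methylation, which in mammals sits on CpG. RefSeq windows on GRCm38.p6 (mm10) run from 250 bases before to 50 after the start. A window was found for 26 of the 42 members, and for 5 of the 7 that changed. Capitals mark CpG, and sequences are on the strand of the gene. The starts printed for Foxp1, Foxn4 and Foxr2 lie inside the gene span and not at its 5' end. Whether these starts are used in the cells was not tested.
Foxi3, chr6:70956356-70956655, plus strand: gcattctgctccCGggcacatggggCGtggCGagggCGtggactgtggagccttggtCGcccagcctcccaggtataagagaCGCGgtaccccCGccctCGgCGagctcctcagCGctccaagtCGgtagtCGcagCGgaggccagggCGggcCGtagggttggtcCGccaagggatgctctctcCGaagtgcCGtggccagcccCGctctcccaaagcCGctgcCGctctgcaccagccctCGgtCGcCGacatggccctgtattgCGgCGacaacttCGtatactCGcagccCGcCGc
Foxp1, chr6:99028249-99028548, minus strand: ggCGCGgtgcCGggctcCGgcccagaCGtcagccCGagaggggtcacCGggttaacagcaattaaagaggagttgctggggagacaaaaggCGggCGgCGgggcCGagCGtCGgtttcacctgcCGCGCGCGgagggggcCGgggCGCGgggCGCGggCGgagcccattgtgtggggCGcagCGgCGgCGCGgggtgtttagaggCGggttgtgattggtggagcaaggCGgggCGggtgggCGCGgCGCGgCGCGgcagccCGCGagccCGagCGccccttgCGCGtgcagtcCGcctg
Foxp4, chr17:47924583-47924882, minus strand: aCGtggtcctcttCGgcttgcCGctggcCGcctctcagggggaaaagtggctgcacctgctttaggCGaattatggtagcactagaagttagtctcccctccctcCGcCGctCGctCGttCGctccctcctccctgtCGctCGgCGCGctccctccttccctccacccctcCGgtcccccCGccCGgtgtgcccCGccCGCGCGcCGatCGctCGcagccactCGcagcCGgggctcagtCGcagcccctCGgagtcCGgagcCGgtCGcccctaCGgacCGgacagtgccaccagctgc
Foxn4, chr5:114273712-114274011, minus strand: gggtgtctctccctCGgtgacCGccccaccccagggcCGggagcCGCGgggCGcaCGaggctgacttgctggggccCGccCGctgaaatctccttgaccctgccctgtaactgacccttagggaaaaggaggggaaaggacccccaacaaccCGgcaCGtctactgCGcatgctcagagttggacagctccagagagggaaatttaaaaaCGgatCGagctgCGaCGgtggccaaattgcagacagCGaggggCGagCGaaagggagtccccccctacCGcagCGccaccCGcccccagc
Foxr2, chrX:153118538-153118837, plus strand: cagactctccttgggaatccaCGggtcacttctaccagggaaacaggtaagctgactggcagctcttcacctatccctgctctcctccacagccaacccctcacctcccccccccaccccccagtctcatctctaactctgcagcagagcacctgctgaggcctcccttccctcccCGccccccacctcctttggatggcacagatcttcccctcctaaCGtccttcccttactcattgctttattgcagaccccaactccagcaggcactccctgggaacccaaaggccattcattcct

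The windows of Foxi3, Foxp4 and Foxn4 held 31, 33 and 22 CpG, and their observed over expected ratios of CpG were 0.871, 0.940 and 0.688. The Foxr2 window stood apart with 3 CpG and a ratio of 0.151, at the 21.1 percentile of all 32851 windows. Foxp1 had 3 windows, and the one printed held 44 CpG (ratio 1.11) against 5 and 13 in the other two (ratios 0.282 and 0.499). Foxi3 and Foxn4, which fell in 2i, and Foxp4, which rose, thus had windows with a ratio of at least 0.6. Foxr2, which fell, did not, and Foxp1, which fell, did so only in the window printed. Over the family, 18 of 29 windows (62.1%) had a ratio of at least 0.6, beside 35.8% of all windows, with 9 of 13 in the developmental class, 7 of 11 in the broad class and 2 of 5 in the rest. A forkhead core motif, TGTTTAC on either strand, was found in 1 member window, that of Foxa1 (3.65% of all windows), and a TCF/LEF core motif, CTTTGAT, in none (3.73% of all windows).

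Among the developmental members, Foxh1 had the highest CPM in every group. Foxh1 stood at 41.1, 38.5 and 39.9 CPM in J1 serum, 55.8, 46.9 and 54.5 in J1 2i, 47.8, 43.1 and 41 in 3B3-3l serum and 52.1, 53.4 and 50.9 in 3B3-3l 2i. All 2i libraries lay above all J1 serum libraries, while one J1 2i library lay within the range of 3B3-3l serum. The log2 fold change in 2i was 0.40 ± 0.07 (adjusted p = 0.000104) in J1 and 0.25 ± 0.07 (adjusted p = 0.00508) in 3B3-3l. On the annotation Foxh1 (chr15:76667829-76671614) overlaps Kifc2, and the counting used strand.

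Foxi3 (chr6:70956606-70961066), which acts in the development of hair, teeth and the inner ear, was the developmental member that changed most among those at 1 CPM or more. It stood at 3.8, 3.11 and 3.01 CPM in J1 serum, 0.502, 0.345 and 0.391 in J1 2i, 12.4, 12.2 and 10.4 in 3B3-3l serum and 0.602, 0.603 and 0.465 in 3B3-3l 2i. Serum libraries lay above all 2i libraries, and 3B3-3l serum lay above J1 serum, while the 2i groups overlapped. On the log2 scale 2i differed from serum by -3.0 ± 0.18 (adjusted p = 4.19e-10) in J1 and -4.38 ± 0.15 (adjusted p = 5.88e-13) in 3B3-3l. In such bulk RNA, fewer cells that express a gene and less RNA per cell cannot be told apart.

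Foxa3, a liver and endoderm factor, changed little. Its libraries stood at 2.91, 2.92 and 2.85 CPM in J1 serum, 2.89, 1.58 and 1.95 in J1 2i, 2.45, 2.56 and 2.29 in 3B3-3l serum and 2.12, 1.9 and 1.96 in 3B3-3l 2i. The groups overlapped in J1, where 1 of the 2i libraries lay within the range of serum, and did not overlap in 3B3-3l. The log2 fold change was -0.43 ± 0.17 (adjusted p = 0.0357) in J1, a call lost under 8 of 19 alternatives, among them each J1 library left out except J1 2i replicate 1 (adjusted p of 0.062 to 0.18), and -0.29 ± 0.18 (adjusted p = 0.161) in 3B3-3l.

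The other 6 tested developmental members had at most 29 counts in any library. Foxq1, known for a mouse hair mutant, had 24, 19 and 22 counts in J1 serum and 1, 2 and 4 in J1 2i, and 29, 25 and 28 in 3B3-3l serum and 0, 1 and 4 in 3B3-3l 2i. Its media did not overlap in either line, with log2 fold changes of -3.24 ± 0.50 (adjusted p = 3.33e-05) and -3.99 ± 0.52 (adjusted p = 4.78e-06). Foxa1, an endoderm pioneer factor, had 19, 11 and 8 counts in J1 serum and 4, 1 and 2 in J1 2i, a log2 fold change of -2.47 ± 0.56 (adjusted p = 0.00114). Its 3B3-3l counts overlapped between media (6 to 15 in serum, 3 to 9 in 2i), with -0.83 ± 0.48 (adjusted p = 0.148). Foxq1 and Foxa1 passed the filter on low counts only through serum libraries. A lower value in 2i was thus built into their selection for testing. Foxc1, Foxe1 and Foxp2, given below, could not have passed it through 2i libraries alone. The selection of these members thus also favoured a lower value in 2i.

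Foxc1, a factor of mesoderm and the eye, fell in 3B3-3l from 15, 17 and 12 counts to 2, 6 and 4, a log2 fold change of -1.90 ± 0.39 (adjusted p = 0.000421). In J1 it had 9 to 13 counts in serum and 9 to 10 in 2i, with -0.28 ± 0.34 (adjusted p = 0.505). Foxe1, a thyroid factor, was called lower in J1 2i, with -1.21 ± 0.46 (adjusted p = 0.0295) from 35 counts in all to 16, and not in 3B3-3l, with 23 counts in each medium. The call of Foxe1 was lost with the DESeq2 Wald test (adjusted p = 0.11) and without J1 serum replicate 2, J1 serum replicate 3 or J1 2i replicate 1 (adjusted p of 0.078 to 0.13). Foxd1, a kidney stroma factor, had 4 to 14 counts in every library and was not called.

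The 13 untested developmental members were Foxb1, Foxb2, Foxc2, Foxd2, Foxd4, Foxe3, Foxf1, Foxf2, Foxi1, Foxi2, Foxl1, Foxl2 and Foxs1. Foxe3, Foxi1 and Foxl1 had no count in any of the 12 libraries, which allows up to 3 counts each, or 0.0674 to 0.0810 CPM by library (counting error only). Foxb2 had 1 count in all, Foxi2 4, Foxd4 7 and Foxb1 9. Foxf1 and Foxf2, factors of gut mesenchyme, had 36 and 12 counts over the 12 libraries. Foxd2 had 0, 1 and 2 counts in J1 serum and 5, 7 and 9 in J1 2i, and 0 to 3 in the 6 libraries of 3B3-3l. Foxs1 had 0 to 5 counts in serum and none in the 6 libraries of 2i. With no filter on low counts, Foxd2 passed in J1 (log2 fold change 2.55 ± 0.91, adjusted p = 0.0179) and Foxs1 in 3B3-3l (-4.34 ± 1.75, adjusted p = 0.0404), the latter against a group at 0, where the fitted value is no bound.

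Of these genes, Foxf1, Foxc2 and Foxl1 lie next to each other on chromosome 8, with gaps of 28.0 and 8.79 kb, and Foxq1, Foxf2 and Foxc1 on chromosome 13, with gaps of 64.8 and 175 kb. In the chromosome 13 group, only Foxq1 and Foxc1 had enough counts to test, and Foxf2 between them had at most 3 counts in a library. In the chromosome 8 group, Foxc2 had 22 counts in J1 serum, 13 in J1 2i, 13 in 3B3-3l serum and 3 in 3B3-3l 2i, and Foxl1 had none.

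**Figure D3:**
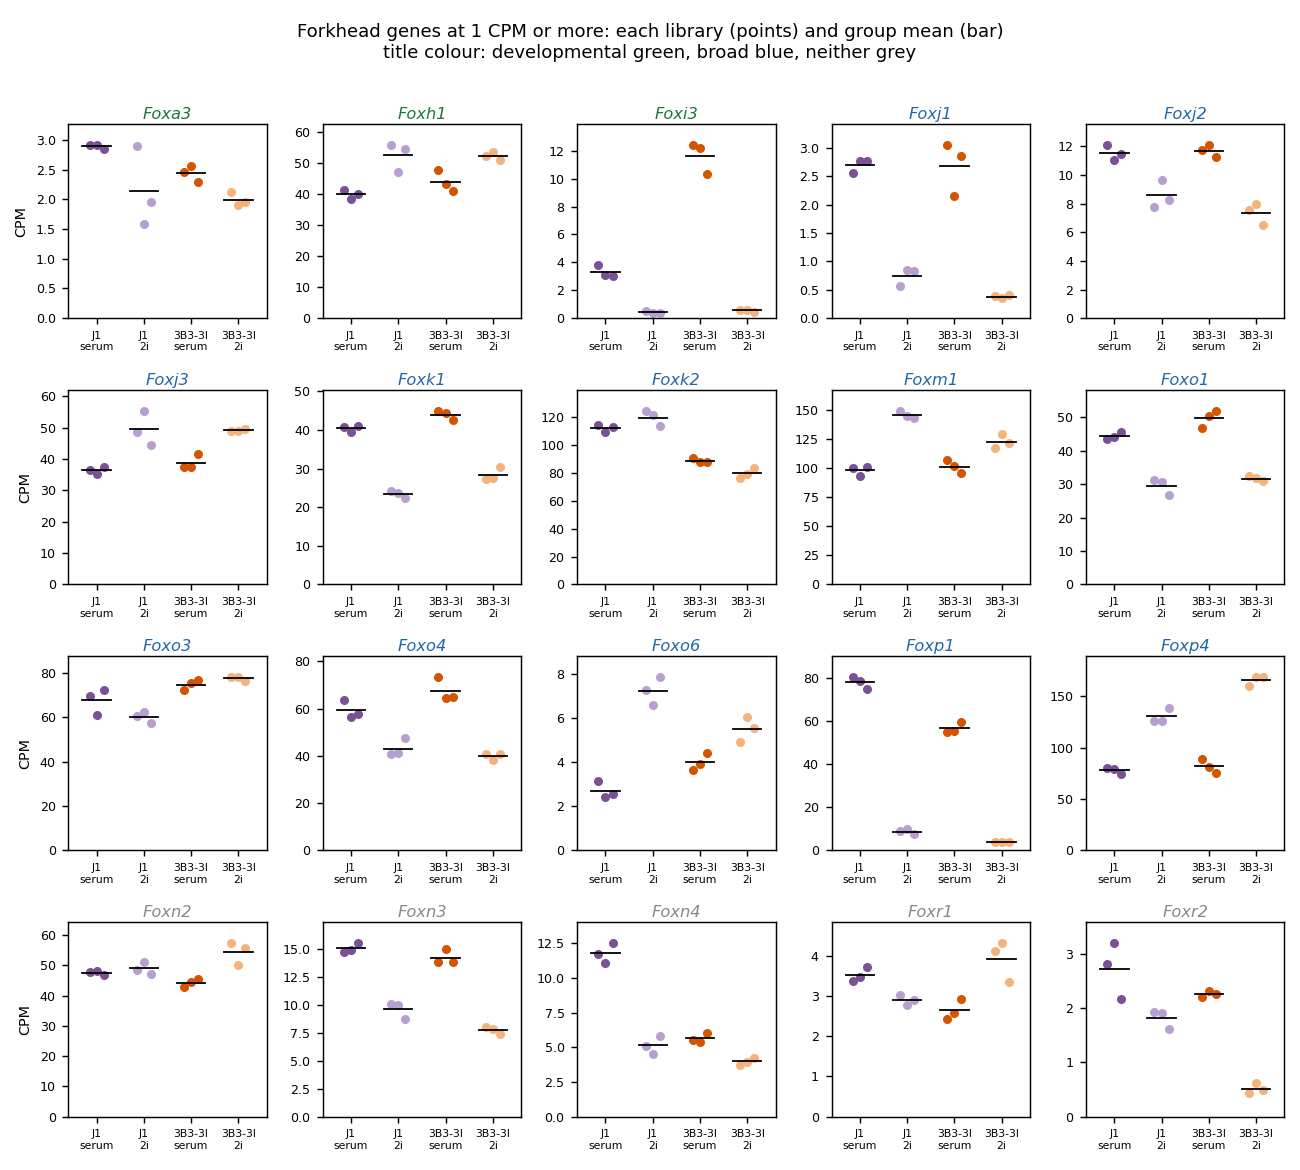
CPM of 20 forkhead genes in each of 12 libraries (points, 3 a group) with the group mean (bar), on linear axes that start at 0 and differ between panels. Foxp1, Foxi3 and Foxj1 drop in 2i in both lines, Foxp4, Foxm1 and Foxo6 rise, and Foxr2 is low only in 3B3-3l 2i.

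In the broad class the P subfamily moved most, and in both directions. Foxp1 (chr6:98925342-99522746) stood at 80.5, 78.6 and 75 CPM in J1 serum, 9.02, 9.81 and 7.51 in J1 2i, 55, 55.7 and 59.8 in 3B3-3l serum and 3.73, 4.1 and 3.82 in 3B3-3l 2i. No group overlapped another, and every 2i library was below 10 CPM while every serum library was above 50. Against serum, 2i gave a log2 fold change of -3.15 ± 0.08 (adjusted p = 2e-14) in J1 and -3.87 ± 0.09 (adjusted p = 6.44e-15) in 3B3-3l. Its paralogue Foxp4 (chr17:47867133-47924632) did the opposite and stood at 80.4, 78.9 and 74.2 CPM in J1 serum, 126, 126 and 139 in J1 2i, 88.7, 81.2 and 75.4 in 3B3-3l serum and 159.5, 168 and 169 in 3B3-3l 2i. The serum groups overlapped, J1 2i lay above them, and 3B3-3l 2i lay above all others. Its log2 fold changes were 0.74 ± 0.06 (adjusted p = 2.69e-08) and 1.02 ± 0.06 (adjusted p = 4.92e-10). Foxp2, a neural and lung factor, had at most 23 counts in a library and was called lower in 3B3-3l 2i (-1.55 ± 0.44 (adjusted p = 0.00604)), a call lost with transcript length offsets (-0.51, adjusted p = 0.76). Foxp2, too, passed the filter on low counts mainly through serum libraries. Foxp3 was not tested, with 4 to 20 counts in a library.

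The O subfamily split, with Foxo1 and Foxo4 down, Foxo6 up and Foxo3 nearly level. Foxo1 stood at 43.4, 44 and 45.5 CPM in J1 serum, 31.3, 30.6 and 26.6 in J1 2i, 46.7, 50.5 and 51.9 in 3B3-3l serum and 32.4, 31.8 and 30.9 in 3B3-3l 2i. In each line the media were separate. Its log2 fold changes were -0.59 ± 0.06 (adjusted p = 6.07e-07) in J1 and -0.65 ± 0.06 (adjusted p = 1.58e-07) in 3B3-3l. Foxo4 stood at 63.6, 56.4 and 57.7 CPM in J1 serum, 40.7, 41 and 47.4 in J1 2i, 73.4, 64.7 and 64.9 in 3B3-3l serum and 40.8, 38.2 and 40.8 in 3B3-3l 2i. Serum libraries all lay above 2i libraries, with log2 fold changes of -0.46 ± 0.07 (adjusted p = 3.07e-05) and -0.76 ± 0.07 (adjusted p = 1.1e-07).

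Foxo3, the most abundant O member by CPM, stood at 69.7, 60.8 and 72.5 CPM in J1 serum, 60.5, 62.5 and 57.4 in J1 2i, 72.2, 75.4 and 76.7 in 3B3-3l serum and 78.1, 78.2 and 76.6 in 3B3-3l 2i. The media overlapped in both lines. In J1 the log2 fold change was -0.17 ± 0.06 (adjusted p = 0.021), a call lost without J1 serum replicate 1, J1 serum replicate 3 or J1 2i replicate 3 (adjusted p of 0.074 to 0.12), and in 3B3-3l it was 0.05 ± 0.06 (adjusted p = 0.449). Foxo6 (chr4:120267078-120287261), which is known mainly from brain, stood at 3.15, 2.41 and 2.57 CPM in J1 serum, 7.25, 6.59 and 7.85 in J1 2i, 3.65, 3.89 and 4.4 in 3B3-3l serum and 4.93, 6.02 and 5.54 in 3B3-3l 2i. In each line 2i was above serum with no overlap, and the order of the lines turned between the media. The log2 fold change was 1.41 ± 0.12 (adjusted p = 4.81e-08) in J1 and 0.47 ± 0.12 (adjusted p = 0.00289) in 3B3-3l.

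Foxm1, the activator of mitotic genes, stood at 100.2, 93.4 and 101 CPM in J1 serum, 149, 144 and 143 in J1 2i, 106, 102 and 95.6 in 3B3-3l serum and 117, 129 and 122 in 3B3-3l 2i. Every 2i library was above every serum library, with log2 fold changes of 0.57 ± 0.05 (adjusted p = 1.1e-07) in J1 and 0.28 ± 0.05 (adjusted p = 0.000259) in 3B3-3l. Of the K pair, Foxk1 stood at 40.8, 39.5 and 41.1 CPM in J1 serum, 24.2, 23.7 and 22.5 in J1 2i, 45, 44.5 and 42.5 in 3B3-3l serum and 27.2, 27.5 and 30.3 in 3B3-3l 2i. All 2i libraries were lower than all serum libraries, at -0.79 ± 0.06 (adjusted p = 4.35e-09) and -0.63 ± 0.06 (adjusted p = 4.67e-08). Foxk2 stood at 114, 109.7 and 113 CPM in J1 serum, 125, 121 and 114 in J1 2i, 90.7, 87.7 and 87.9 in 3B3-3l serum and 76.6, 79.4 and 83.8 in 3B3-3l 2i. Every 3B3-3l library was below every J1 library. The medium gave 0.09 ± 0.05 (adjusted p = 0.106) in J1 and -0.15 ± 0.05 (adjusted p = 0.0134) in 3B3-3l, the latter lost with transcript length offsets (-0.08, adjusted p = 0.31) and without 3B3-3l 2i replicate 1 (adjusted p = 0.075).

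Foxj1 (chr11:116330704-116335499) stood at 2.56, 2.77 and 2.76 CPM in J1 serum, 0.57, 0.849 and 0.829 in J1 2i, 3.05, 2.15 and 2.86 in 3B3-3l serum and 0.385, 0.348 and 0.413 in 3B3-3l 2i. Serum libraries were all above 2 CPM and 2i libraries all below 1, and 3B3-3l 2i lay under J1 2i. Its log2 fold change was -1.85 ± 0.18 (adjusted p = 2.06e-07) in J1 and -2.81 ± 0.20 (adjusted p = 5.01e-09) in 3B3-3l. Foxj2 stood at 12.1, 11 and 11.5 CPM in J1 serum, 7.79, 9.64 and 8.28 in J1 2i, 11.7, 12.1 and 11.2 in 3B3-3l serum and 7.56, 7.97 and 6.51 in 3B3-3l 2i. In each line 2i lay below serum, at -0.43 ± 0.09 (adjusted p = 0.000569) and -0.67 ± 0.09 (adjusted p = 8.39e-06). Foxj3 stood at 36.4, 35.4 and 37.4 CPM in J1 serum, 48.7, 55.4 and 44.6 in J1 2i, 37.6, 37.5 and 41.5 in 3B3-3l serum and 49, 49 and 49.5 in 3B3-3l 2i. It went the other way with no overlap of media, at 0.45 ± 0.07 (adjusted p = 3.26e-05) and 0.34 ± 0.07 (adjusted p = 0.000428).

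Of the members in neither class, Foxn3, a checkpoint factor, stood at 14.7, 15 and 15.5 CPM in J1 serum, 10.1, 10.03 and 8.77 in J1 2i, 13.9, 15 and 13.8 in 3B3-3l serum and 8.01, 7.88 and 7.35 in 3B3-3l 2i. All 2i libraries were lower, at -0.64 ± 0.07 (adjusted p = 8.58e-07) and -0.88 ± 0.07 (adjusted p = 2.65e-08). Foxn4 (chr5:114254164-114274418), known from retinal progenitors, stood at 11.7, 11.1 and 12.5 CPM in J1 serum, 5.08, 4.55 and 5.78 in J1 2i, 5.56, 5.38 and 6.03 in 3B3-3l serum and 3.75, 3.96 and 4.23 in 3B3-3l 2i. J1 serum lay above all other groups with no overlap. Its log2 fold change was -1.20 ± 0.09 (adjusted p = 1.29e-08) in J1 and -0.51 ± 0.10 (adjusted p = 0.000379) in 3B3-3l. Foxn2 stood at 47.9, 48.1 and 46.9 CPM in J1 serum, 48.6, 51.1 and 47.2 in J1 2i, 42.9, 44.6 and 45.5 in 3B3-3l serum and 57.4, 50.2 and 55.9 in 3B3-3l 2i. The media overlapped in J1, at 0.04 ± 0.06 (adjusted p = 0.542), and were separate in 3B3-3l, at 0.30 ± 0.06 (adjusted p = 0.000218). Foxn1, a thymus factor, had 3 to 16 counts in a library and was not tested.

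Foxr2 (chrX:153114581-153132861) is normally near silent in adult tissue and is switched on in some tumours. It stood at 2.82, 3.21 and 2.17 CPM in J1 serum, 1.94, 1.91 and 1.61 in J1 2i, 2.22, 2.32 and 2.27 in 3B3-3l serum and 0.433, 0.626 and 0.49 in 3B3-3l 2i. The 3B3-3l 2i libraries were all below 1 CPM and those of every other group above 1.5. In 2i the log2 fold change was -0.59 ± 0.16 (adjusted p = 0.00381) in J1 and -2.13 ± 0.19 (adjusted p = 8.16e-08) in 3B3-3l. Foxr1 stood at 3.37, 3.46 and 3.72 CPM in J1 serum, 3.02, 2.76 and 2.91 in J1 2i, 2.43, 2.57 and 2.93 in 3B3-3l serum and 4.11, 4.31 and 3.35 in 3B3-3l 2i. It was separate between media in both lines, in opposite directions, with -0.28 ± 0.12 (adjusted p = 0.0513) in J1, which missed the threshold, and 0.57 ± 0.12 (adjusted p = 0.000597) in 3B3-3l.

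The second comparison set the lines against each other within a medium. In serum 8 of 27 tested members were called, 4 higher and 4 lower in 3B3-3l, beside 38.7% of all genes, and at 2-fold or more 2 were (Foxi3 and Foxn4), beside 4.58%. Foxi3 was the highest, at 1.81 ± 0.12 (adjusted p = 2.33e-08), and Foxo6 followed at 0.55 ± 0.13 (adjusted p = 0.00329). Foxn4 was the lowest, at -1.06 ± 0.09 (adjusted p = 4.61e-07), then Foxp1 at -0.46 ± 0.07 (adjusted p = 7.83e-05), Foxr1 at -0.41 ± 0.12 (adjusted p = 0.0152) and Foxk2 at -0.34 ± 0.05 (adjusted p = 5.93e-05). The calls of Foxo1 (0.17 ± 0.06, adjusted p = 0.0454) and Foxo4 (0.19 ± 0.07, adjusted p = 0.0423) were small and lost under 14 and 9 of 19 alternatives. Without J1 serum replicate 3, 3B3-3l serum replicate 1 or 3B3-3l serum replicate 2, Foxr1 also missed the threshold (adjusted p of 0.052 to 0.055).

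In 2i, 14 of 27 were called between the lines, 5 higher and 9 lower in 3B3-3l, beside 45.9% of all genes, and at 2-fold or more 3 were (Foxr2, Foxc1 and Foxp1), beside 8.09%. Foxr2 was the lowest, at -1.81 ± 0.20 (adjusted p = 2.37e-06), and Foxc1 (-1.19 ± 0.41), Foxp1 (-1.18 ± 0.10) and Foxj1 (-0.97 ± 0.24) followed, with adjusted p of 0.0276, 9.55e-08 and 0.0036. Foxk2, Foxo6, Foxn4, Foxn3 and Foxm1 were lower by 0.25 to 0.59 on the log2 scale. Higher in 3B3-3l 2i were Foxr1 (0.44 ± 0.12), Foxo3 (0.37 ± 0.06), Foxp4 (0.35 ± 0.06), Foxk1 (0.27 ± 0.06) and Foxn2 (0.15 ± 0.06). Foxk2, Foxp1 and Foxn4 were lower in 3B3-3l in both media, and Foxo6 and Foxr1 were called in opposite directions in serum and 2i. The calls of Foxc1 and Foxn2 were lost with no filter on low counts (adjusted p = 0.072 and 0.10) and in fits without single libraries, up to an adjusted p of 0.15 for each without 3B3-3l 2i replicate 1. For Foxc1 the other libraries were J1 2i replicates 2 and 3 and 3B3-3l 2i replicate 3, and for Foxn2 each J1 serum replicate, J1 2i replicates 1 and 3 and 3B3-3l 2i replicate 3. The DESeq2 Wald test also lost the Foxc1 call. That of Foxn2 was also lost with at least 10 counts in every library, the replicate block and only the 6 libraries compared. Foxo6 missed the threshold without 3B3-3l 2i replicate 1 (adjusted p = 0.053) and Foxr1 without 3B3-3l 2i replicate 2. By class, 1 of 9 developmental, 8 of 13 broad and 5 of 5 remaining members were called in 2i.

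The third comparison asked whether the 2i effect differed between the lines, as an interaction. It was called for 13 of 27 members, 4 higher and 9 lower in 3B3-3l than in J1, beside 34.7% of all genes, and with a difference of at least 2-fold for 3 (Foxc1, Foxr2 and Foxi3), beside 8.22%. Each value is the 2i log2 fold change in 3B3-3l minus that in J1. The fall in 2i was steeper in 3B3-3l for Foxr2 (-1.54 ± 0.25, adjusted p = 0.00026), Foxi3 (-1.38 ± 0.27, adjusted p = 0.00105), Foxj1 (-0.96 ± 0.29, adjusted p = 0.0165), Foxp1 (-0.72 ± 0.12, adjusted p = 0.000235) and Foxo4 (-0.30 ± 0.10, adjusted p = 0.0307). For Foxi3 it started from a higher serum level and ended at overlapping 2i levels. The rise was smaller in 3B3-3l for Foxo6 (-0.95 ± 0.17, adjusted p = 0.000569) and Foxm1 (-0.29 ± 0.07, adjusted p = 0.00656). It was larger for Foxp4 (0.28 ± 0.09, adjusted p = 0.0215) and Foxn2 (0.26 ± 0.08, adjusted p = 0.0202). Foxn4 fell less in 3B3-3l (0.69 ± 0.14, adjusted p = 0.00122), and Foxr1 differed by 0.85 ± 0.17 (adjusted p = 0.00124). Foxc1 (-1.62 ± 0.52, adjusted p = 0.0256) and Foxk2 (-0.25 ± 0.07, adjusted p = 0.0128) made up the 13. The Foxc1 call was lost with DESeq2 (adjusted p = 0.12) and with no filter on low counts (adjusted p = 0.071), and that of Foxk2 with transcript length offsets (adjusted p = 0.68). Single libraries also decided some calls. Foxc1 was lost without J1 serum replicate 1, J1 2i replicate 2, 3B3-3l serum replicate 2 or 3B3-3l 2i replicate 1 (adjusted p of 0.052 to 0.081), and Foxn2 without any J1 serum replicate or without 3B3-3l 2i replicates 1 or 3 (0.053 to 0.071). Foxo4 was lost without J1 serum replicate 2, J1 2i replicate 3, 3B3-3l serum replicate 1 or 3B3-3l 2i replicate 2 (0.054 to 0.077), and Foxp4 without J1 serum replicates 1 or 2, J1 2i replicate 1, 3B3-3l serum replicate 3 or 3B3-3l 2i replicates 2 or 3 (0.051 to 0.087).

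The share of each transcript in the TPM of its gene was compared between media for 15 transcripts of 7 members with at least 10 CPM in every group. By exact permutation of the media within lines, 2 passed after adjustment. Transcript Foxm1-003 held 15.8% ± 1.93 of Foxm1 TPM in J1 serum and 11.6% ± 2.21 in J1 2i, and 15.1% ± 1.98 and 11.9% ± 0.942 in 3B3-3l (SD, n = 3, exact permutation p = 0.005, adjusted p = 0.0375). Transcript Foxp4-001 held 26.7% ± 0.747 of Foxp4 TPM in J1 serum and 31.4% ± 2.69 in J1 2i, and 26.5% ± 3.25 and 32.3% ± 0.560 in 3B3-3l (exact permutation p = 0.005, adjusted p = 0.0375). That p is the smallest that 400 arrangements give, so neither of the 2 could pass alone after adjustment over 15 transcripts. With transcripts of at least 5% share included, 21 were compared, and 2 at that smallest p could not pass. None passed there, or without any one of 7 of the 12 libraries.

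Genes known to act with or under these factors are shown from 5 lists. For the regulators of FOXO in the PI3K-AKT pathway with 14-3-3 proteins, 16 of 22 were called in J1 (8 higher, 8 lower in 2i) and 16 in 3B3-3l (9 higher, 7 lower), with medians of -0.04 and 0.05. The share called, 72.7% in each line, was near that of all genes, 66.1% in J1 and 65.4% in 3B3-3l, of which 33.2% and 32.7% were higher. The extremes in J1 were Sgk3, a kinase of FOXO (1.26 ± 0.07, adjusted p = 4.66e-10), and Pik3cb, a PI3K subunit (-0.91 ± 0.05, adjusted p = 1.88e-10). Akt2, another kinase of FOXO, rose most in 3B3-3l (0.89 ± 0.05, adjusted p = 1.07e-10). Of 22 FOXO targets, 20 were called in J1 (7 higher, 13 lower) and 22 in 3B3-3l (10 higher, 12 lower), with medians of -0.36 and -0.70. These were 90.9% and 100% of the list. Cdkn1a, a cell cycle inhibitor, rose most in both lines, at 1.83 ± 0.05 (adjusted p = 1.04e-13) and 1.91 ± 0.05 (adjusted p = 5.05e-14). Fbxo32, a ubiquitin ligase, fell most in J1 (-3.20 ± 0.19, adjusted p = 3.99e-10), and Bcl2l11, a death factor, fell most in 3B3-3l (-3.03 ± 0.07, adjusted p = 7.99e-15). In the same cells Foxo1 and Foxo4 fell, Foxo3 was nearly level and Foxo6 rose. The targets moved in both directions, and a link between FOXO RNA and these targets was not tested.

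Of 24 FOXM1 targets, 17 were called in J1 (6 higher, 11 lower) and 13 in 3B3-3l (5 higher, 8 lower), with medians of -0.08 and 0.00. Foxm1 itself rose in 2i, and a link between its RNA and these targets was not tested. The shares called, 70.8% and 54.2%, lay on either side of those of all genes, 66.1% and 65.4%. Cenpb, a centromere protein, was highest in both lines (0.75 ± 0.08, adjusted p = 2.91e-07, and 0.73 ± 0.08, adjusted p = 5.27e-07). Cdc20, an activator of the anaphase-promoting complex, was lowest in J1 (-0.78 ± 0.07, adjusted p = 4.39e-08) and Cdc25b, a mitotic phosphatase, in 3B3-3l (-0.59 ± 0.05, adjusted p = 5.39e-08). For FOXH1 and the Nodal pathway, 12 of 17 were called in J1 (8 higher, 4 lower) and 15 in 3B3-3l (9 higher, 6 lower), with medians of 0.04 and 0.23. These were 70.6% and 88.2% of the list. Eomes, a mesendoderm factor, rose most, by 3.30 ± 0.08 (adjusted p = 1.84e-14) in J1 and 2.39 ± 0.08 (adjusted p = 3.89e-13) in 3B3-3l. Lefty1, the Nodal antagonist, fell most in J1 (-2.81 ± 0.07, adjusted p = 1.69e-14), and Skil, a SMAD corepressor, fell most in 3B3-3l (-2.67 ± 0.07, adjusted p = 4.12e-14).

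The list of motile cilium genes held Foxj1 itself, and 14 of its 22 genes could be tested. In J1 10 were called (3 higher, 7 lower) and in 3B3-3l 14 (3 higher, 11 lower), with medians of -0.71 and -1.08. The shares were 71.4% and 100% of those tested, beside the same background. Some genes were low in 2i, such as Dnah11, with means of 0.651 CPM in J1 serum and 0.194 in J1 2i, and 0.831 and 0.177 in 3B3-3l. A gene that passed the filter on low counts only through serum had to differ. These counts, shares and medians thus describe the tested genes only. Ccno, a regulator of centriole number, was lowest in both lines, at -2.52 ± 0.23 (adjusted p = 9.26e-08) and -3.15 ± 0.26 (adjusted p = 2.26e-08). Cfap126 was highest in J1 (0.88 ± 0.17, adjusted p = 0.000241) and Tekt1, a microtubule protein, in 3B3-3l (0.73 ± 0.09, adjusted p = 4.56e-06). Dnah9, Dynlrb2 and Tekt4 had at most 3 counts in every library.

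**Figure D4:**
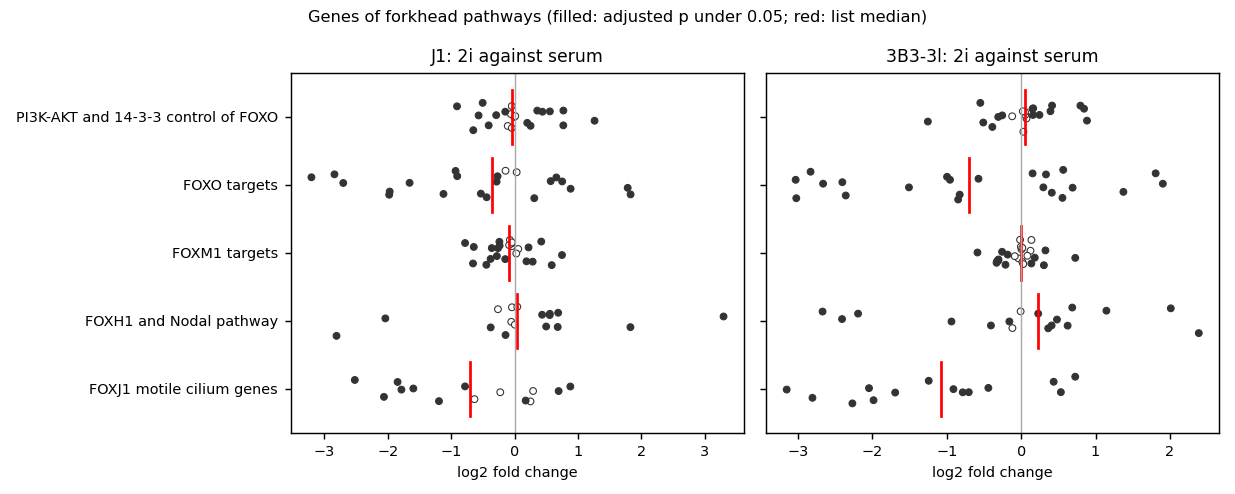
The log2 fold change of 2i against serum for tested genes of 5 lists, in J1 (left) and 3B3-3l (right), with called genes filled and the list median in red. Each list spreads to both sides of 0, with the lowest medians for the motile cilium genes, -0.71 and -1.08.

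Markers of other cell types moved with the medium beside the members that fell. Of 18 fibroblast and feeder genes, 14 were tested, and 12 were lower in 2i in each line, with medians of -2.97 in J1 and -3.85 in 3B3-3l, beside 32.9% and 32.7% of all genes lower. Of the 18, 7 had at most 3 counts in every library of J1 2i and 7 in 3B3-3l 2i, against 1 in each serum group. In the marker lists too, a gene that passed the filter on low counts only through serum had to differ. Their counts and medians thus describe the tested genes only. The 13 tested genes other than Fn1, which is abundant and rose, summed to 139 to 146 CPM in J1 serum, 44.5 to 46.1 in J1 2i, 162 to 190 in 3B3-3l serum and 33.5 to 34.8 in 3B3-3l 2i. With Fn1 all 18 summed to 1179 to 1460 CPM in J1 serum and 1541 to 1915 in J1 2i. Lum had at most 3 counts in every library, and in serum, where J1 had been kept on feeders, 5 of the 14 were higher and 1 lower in 3B3-3l than in J1, or 42.9% called beside 38.7% of all genes. Of 14 primitive endoderm markers, 10 were higher and 1 lower in 3B3-3l serum than in J1 serum, where Foxi3 was also higher, beside 21.5% of all genes higher and 17.2% lower. In 2i, 6 of them fell and 5 rose in J1, and 10 fell and 1 rose in 3B3-3l. They summed to 508 to 545 CPM in J1 serum, 494 to 502 in J1 2i, 578 to 586 in 3B3-3l serum and 426 to 439 in 3B3-3l 2i. Of 5 neural markers tested, 4 were lower and 1 higher in J1 2i, and 3 lower and 0 higher in 3B3-3l 2i. Of 8 mesoderm and endothelium markers tested, 4 were lower and 1 higher in J1 2i, and 6 and 2 in 3B3-3l 2i. The sum of the latter list averaged 117.6 CPM in J1 serum and 190.4 in J1 2i. It averaged 71.9 CPM in 3B3-3l serum and 141.8 in 3B3-3l 2i. Most of that sum was Pecam1, with means of 107.1 and 184.3 CPM in J1 and 57.1 and 137.1 in 3B3-3l. The part of all these markers in the changes of Foxp1, Foxi3, Foxj1, Foxq1 and Foxc1 was not tested.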

How the data were processed

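Stranded poly(A) libraries were quantified by the authors with Sailfish (version 0.9.2, strand-aware) against mm10 transcripts and summarised with tximport. The deposited gene table holds estimated counts, and the deposited transcript tables hold TPM, estimated counts and lengths. Groups came from the labels, which do not assign sequencing pools to libraries. Counts were rounded, filtered with filterByExpr of edgeR (version 4.0.16, R 4.3.3), which kept 17885 genes, and scaled by TMM factors (0.970 to 1.038). The quasi-likelihood fit used the 4 group means over 12 libraries and was tested in 5 contrasts. Adjusted p values of single genes are from edgeR with Benjamini-Hochberg adjustment over all genes tested, log2 fold changes are given ± the standard error, and the biological coefficient of variation was 6.49%. Libraries held 37050652 to 44515395 reads. Floors of 3 counts cover counting error only. Levels per kb divide CPM by the TPM-weighted effective length. For Foxf1, Foxj2, Foxn3 and Foxp1, transcripts assigned to the gene did not add up to its count (tolerance 5%). Coordinates are RefSeq gene spans on GRCm38.p6, matched by symbol. Transcript shares were compared by exact two-sided permutation. The code was tested on simulated data. Members, classes and lists were chosen with earlier results of these data known. Values per library are given for tested members at 1 CPM or more called in some contrast, and of each list for the called genes with the highest and lowest change. Some genes that these rules pick are left out of the text and figures, and counts include them. Alternatives were DESeq2 (version 1.42.0) size factors and Wald test, other filters, the 6 libraries compared, a replicate block, length offsets, a 2-fold threshold, classes by single gene and each library left out.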

Additional observations from a re-analysis of the deposited data

Results flagged for a closer look

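The 2i effect differed between the lines for 13 forkhead genes by the interaction test, each value being the log2 fold change in 3B3-3l minus that in J1. Negative were Foxc1 (-1.62), Foxr2 (-1.54), Foxi3 (-1.38), Foxj1 (-0.96), Foxo6 (-0.95), Foxp1 (-0.72), Foxo4 (-0.30), Foxm1 (-0.29) and Foxk2 (-0.25). Positive were Foxr1 (0.85), Foxn4 (0.69), Foxp4 (0.28) and Foxn2 (0.26). Across all genes tested, 34.7% were called in this contrast. Foxc1 could not have passed the filter on low counts through its 2i libraries alone.

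Among them, Foxr1 and Foxk2 had 2i effects of opposite sign in J1 and 3B3-3l, each past the threshold in 3B3-3l alone. The cells of the lines also differed in growth surface in serum, and its part in these differences was not tested. Groups held 3 libraries, too few to look for single libraries that stood apart within a group.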

How the results depend on the processing

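Over the 27 tested members and 5 contrasts, 135 single values were recomputed under up to 19 alternatives, 2492 in all. The side of the threshold held in 2385, among them 29 in which a value not called either way changed sign, the call was lost in 87 and gained in 20, and no called value changed sign. At a change of at least 2-fold, calls went to 8 from 20 (2i in J1), 9 from 22 (2i in 3B3-3l), 2 from 8 (lines in serum), 3 from 14 (lines in 2i), 3 from 13 (interaction), and for broad members to 3 from 11 and 4 from 12. With at least 10 counts in every library, the developmental members called were 3 in J1 and 2 in 3B3-3l, since fewer could be tested, and with only the 6 libraries compared they were 3 in J1. With classes by single gene (Foxj1, Foxo6, Foxp2, Foxp3, Foxn1 and Foxn4 moved to developmental), they were 9 in 3B3-3l. Transcript shares that passed fell to 0 with shares of at least 5%, where 2 at the smallest p could not pass. They also fell to 0 with the replicate block, which cannot give a p under 0.0312. When each library was left out, calls ranged from 17 to 21 (2i in J1), 21 to 22 (2i in 3B3-3l), 6 to 8 (lines in serum), 11 to 14 (lines in 2i) and 10 to 13 (interaction), for developmental members 4 to 6 and 4 to 5, for broad members 10 to 11 and 11 to 12, and for transcript shares 0 to 3. They were 0 without J1 serum replicate 1 or 2, J1 2i replicate 2, 3B3-3l serum replicate 3 or any 3B3-3l 2i replicate, and 3 without J1 serum replicate 3 or J1 2i replicate 3.

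Libraries with the same replicate number did not deviate together (correlations of -0.118 to 0.062), and the main fit did not pair them. Shared handling of libraries with the same number was not tested. With the replicate block, the calls of Foxn2 in 2i (adjusted p = 0.061) and Foxo1 in serum (adjusted p = 0.073) between the lines were lost and no other. Members that were not tested had at most 20 counts in any library.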
